A study of Sus scrofa with 6 samples.

Results

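The insulin-like growth factor (IGF) axis was followed in porcine satellite cells (PSCs), the stem cells of skeletal muscle, between an earlier and a later time of differentiation. The 10 genes were chosen by name, namely the ligand IGF1, the receptors IGF1R, INSR and IGF2R, the binding proteins IGFBP2, IGFBP3, IGFBP4, IGFBP5 and IGFBP7, and the adaptor IRS1. They were found by the gene symbol paired with the Ensembl identifier of a row. Of the 28266 rows of the table, 11804 carried a symbol and 8 belonged to these genes. IGFBP2 and IGFBP3 were not analysed here.

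Growth factor bound to IGF1R or to the insulin receptor (INSR) makes these tyrosine kinases phosphorylate IRS1, which recruits PI3-kinase and leads to AKT and mTOR, while other adaptors lead to RAS and ERK. IGF2R, which is also the cation-independent mannose 6-phosphate receptor, removes IGF2 from the cell surface and has no kinase. The secreted binding proteins hold the ligands and control how much reaches a receptor, and IGFBP7 binds them only weakly. In cultured muscle cells the axis is known both for promoting proliferation and for promoting differentiation and growth of myotubes.

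RNA-seq covered 6 libraries, 3 in group N1 (24 h of differentiation) and 3 in group N2, each group numbered 4, 5 and 6. N2 is labelled 48 h, whereas the series title and the methods have 36 h for the later time, and the files do not settle which is right. The sample labels name no siRNA, and the letter N is the one the study uses for its negative control (NC) siRNA groups, so both groups may carry that siRNA. Differentiation was in medium with 5% horse serum. The cells came from limb muscle of 3-day-old male Yorkshire pigs, with fibroblasts reduced by preplating, and the sources used here do not say whether the replicates were separate animals, so the p-values measure the spread between these libraries, which may be technical. Although the extraction note names endometrium, muscle genes were abundant in all libraries, with DES (desmin) at an FPKM between 1452 and 3367 and MYOD1, the myoblast determination factor, between 246 and 386.

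FPKM is the number of fragments of a gene per kilobase of gene, scaled to the counted fragments of the library. The fragments recovered from the FPKM values summed to between 16250222 and 21723087 per library. The library totals implied by the FPKM values were between 16382890 and 21896353. With these totals, 1 fragment of a gene 1 kb long added from 0.0457 to 0.0610 to its FPKM. A gene was tested if its FPKM averaged 1 or more over the 6 libraries, with limma on log2(FPKM + 1), with Benjamini-Hochberg adjustment over all 14060 genes tested and a threshold of 0.05. Log2 changes are given as N2 minus N1, and they understate the change of genes with low FPKM. N1 replicate 6 stood apart from its group, with a summed FPKM of 12 muscle markers of 5035 against 8834 and 7811 in replicates 4 and 5 and between 18569 and 21255 in N2. Within N1, MYOD1, MYF5 and MYF6 were highest in replicate 6, and every other marker of the list was lowest there. MYOD1 had 386 in replicate 6 against 255 and 306 in replicates 4 and 5, and MYF5 111.8 against 66.9 and 75.4. Between the groups 10 of the 12 rose, and MYOD1 and MYF5 were not called. The 9 fibroblast markers with a row summed to between 934 and 1005 in N1 and between 831 and 1037 in N2. Most of that sum came from COL1A2 (mean 692.9 in N1 and 450.5 in N2) and COL3A1 (241.0 and 443.2), which moved in opposite directions. The sum therefore says little about the other markers. PDGFRA was at most at 0.680 and was not tested, with means of 0.486 in N1 and 0.0859 in N2, from 71 and 16 fragments. Single markers moved within the sum. Of the 7 tested, 3 were lower in N2 by limma, namely DCN (decorin, log2 change -1.48, adjusted p = 0.00064), LUM (lumican, -1.19, adjusted p = 0.00149) and the collagen gene COL1A2 (-0.62, adjusted p = 0.00365). Another 3 were higher, namely the receptor gene PDGFRB (0.90, adjusted p = 0.00174), the collagen gene COL3A1 (0.87, adjusted p = 0.00446) and POSTN (periostin, 0.47, adjusted p = 0.00913). Markers of endothelial cells (4 genes, KDR at 0 in all libraries) summed to at most 2.72, of immune cells (5 genes, PTPRC and TYROBP at 0) to at most 5.72, and of adipocytes (2 genes) to at most 0.557. The part of these markers in the results was not tested.

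Among the IGF axis genes, IGFBP7 and IRS1 rose, INSR fell, and IGF2R, IGFBP4 and IGFBP5 did not pass the test, while IGF1 and IGF1R were too low to be tested. Thus 3 of the 6 tested genes had an adjusted p under 0.05, where 50.9% of all genes tested had one. Of these, 2 were higher in N2, against 16.5% of all genes tested, and 1 was lower, against 34.4%. In 4 of the 6 genes the FPKM values of the groups did not overlap, against 63.6% of all genes tested. With 6 genes these counts are a description, and their difference from the whole table was not tested. Because the libraries are bulk RNA, fewer cells of a type and less RNA per cell cannot be told apart in any of these changes.

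**Figure D1:**
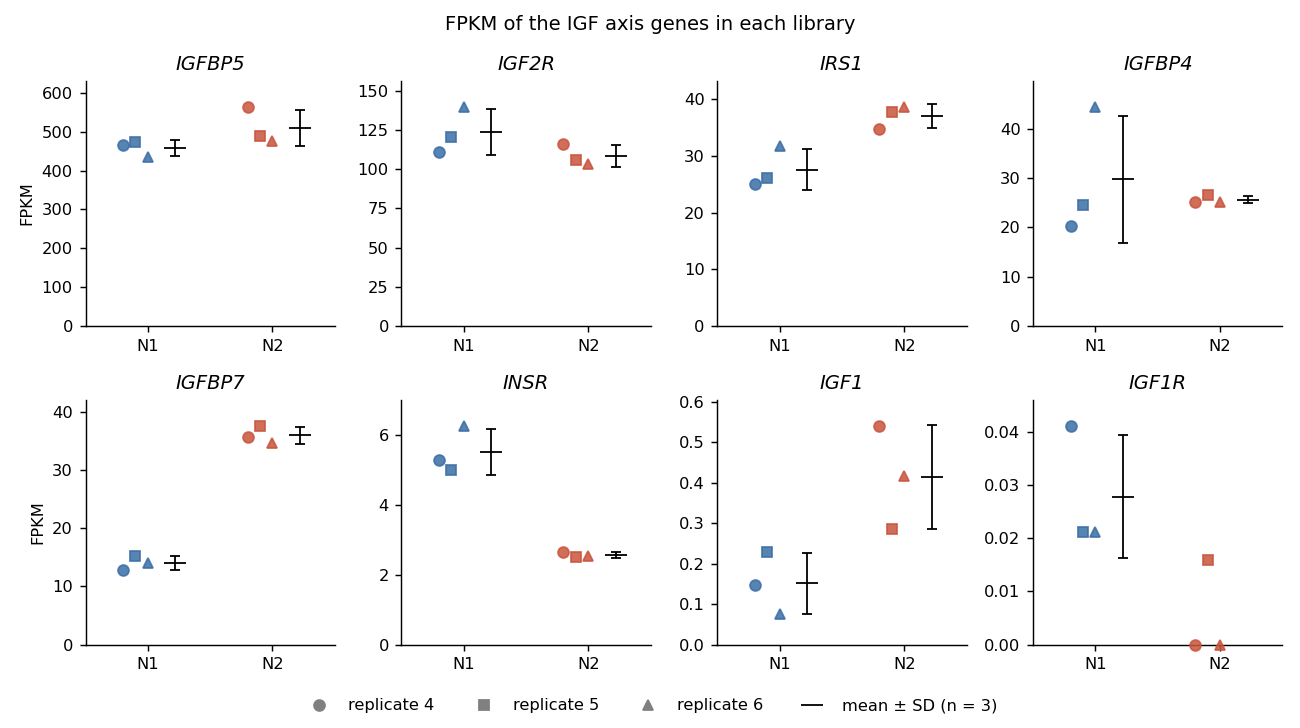
FPKM (vertical axes, each starting at 0) of the 8 IGF axis genes in the N1 and N2 libraries, with a symbol per replicate number and the mean ± SD beside them (n = 3, not drawn for the N2 group of IGF1R, where 2 libraries are at 0). IGFBP7 and IRS1 lie higher and INSR lower in all N2 libraries than in any N1 library, and the wide bar of IGFBP4 in N1 comes from replicate 6 at 44.4.

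The ligand IGF1 (ENSSSCG00000000857, on chromosome 5 of Sscrofa11.1 from 81762027 to 81909253) was near the limit of detection. Its FPKM was 0.148, 0.229 and 0.0759 in N1 replicates 4, 5 and 6, and 0.541, 0.285 and 0.416 in N2. These values stood on 6 fragments in the 3 N1 libraries and 20 in the 3 N2 libraries. All N2 values lay above all N1 values, and the pooled ratio was 2.73 with an exact 95% interval from 1.058 to 8.31, which covers counting error only. Without the filter on low values limma gave a log2 change of 0.30 (standard error 0.08, adjusted p = 0.0392). At this depth the row held few IGF1 fragments in either group. Its counted length was 800 bases, and whether it covers the whole gene was not tested.

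Of the receptors, IGF1R (ENSSSCG00000030560), whose kinase is the main receptor for IGF1, had almost no reads in its row. In RefSeq the gene lies on chromosome 1 from 137383623 to 137691038. The row held 2, 1 and 1 fragments in N1 replicates 4, 5 and 6, and 0, 1 and 0 in N2, or an FPKM of at most 0.0412. The ratio of N2 to N1 was 0.205, with an exact 95% interval from 0.00416 to 2.07, so no difference was detectable at this depth. The fragments and FPKM of this row implied a counted length of 2868 bases, and whether that row covers the whole gene was not tested.

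INSR (ENSSSCG00000013566, chromosome 2 from 71797209 to 71939923), the insulin receptor, was the member that fell. Its FPKM was 5.28, 5.004 and 6.27 in N1 replicates 4, 5 and 6, and 2.65, 2.50 and 2.54 in N2. The lowest N1 library was well above the highest N2 library, and the N2 libraries were closer together than those of N1. The mean went from 5.52 ± 0.665 (SD, n = 3) to 2.56 ± 0.0819 (SD, n = 3), a ratio of 0.465, from 492 and 279 fragments. On the log2 scale it changed by -0.87 (standard error 0.10, limma adjusted p = 0.00144), and its absolute change was larger than that of 88.1% of all genes tested.

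IGF2R (ENSSSCG00000004044, chromosome 1 from 7369485 to 7472480), the receptor that clears IGF2, had the highest FPKM of the receptors. It had an FPKM of 110.6, 120.4 and 139.5 in N1 replicates 4, 5 and 6, and of 116.1, 105.6 and 103.4 in N2. The groups overlapped, with N2 replicate 4 above N1 replicate 4. Its log2 change of -0.18 had a 95% interval from -0.42 to 0.05 (limma adjusted p = 0.158). Over all genes tested the median change was -0.16, so relative to that median IGF2R was at -0.03, and after median-ratio scaling its change was -0.009.

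IGFBP5 (ENSSSCG00000025924, chromosome 15 from 118861816 to 118877787), the binding protein known to be made by differentiating myoblasts, had the highest FPKM of the 8 genes and ranked 170 among all genes tested. Its values were 464.6, 472.4 and 433.6 in N1 replicates 4, 5 and 6, and 562.7, 488.2 and 475.8 in N2. All N2 libraries lay above all N1 libraries, but N2 replicate 6 exceeded N1 replicate 5 by little. The means were 456.9 ± 20.5 and 508.9 ± 47.0 (SD, n = 3 each), and the log2 change was 0.15 with a 95% interval from -0.05 to 0.36 (limma adjusted p = 0.176). With median-ratio scaling the change was 0.33 and passed the threshold (adjusted p = 0.0239).

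IGFBP4 (ENSSSCG00000017472, chromosome 12 from 21966524 to 21980043), which sequesters IGFs until it is cleaved by the protease PAPPA, depended on a single library. Its FPKM was 20.2, 24.6 and 44.4 in N1 replicates 4, 5 and 6, and 25.2, 26.5 and 25.2 in N2. N1 replicate 6 was the highest of all libraries and the other N1 libraries were the lowest. The coefficient of variation was 43.3% in N1 and 2.97% in N2, where the medians over all genes tested were 10.9% and 8.13%. Its log2 change was -0.13, with a 95% interval from -0.75 to 0.49 (limma adjusted p = 0.704), and it was 0.19 without N1 replicate 6 (adjusted p = 0.121). PAPPA itself had 0.448, 0.911 and 1.44 in N1 replicates 4, 5 and 6, also highest in replicate 6, and 0.256, 0.364 and 0.443 in N2, under the FPKM minimum.

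IGFBP7 (ENSSSCG00000008913, chromosome 8 from 56283089 to 56357822), the weakly IGF-binding and secreted member, changed most. In N1 replicates 4, 5 and 6 it had an FPKM of 12.9, 15.3 and 14.001, and in N2 35.7, 37.7 and 34.6. Every N2 library was more than 2 times as high as every N1 library, and N1 replicate 6 lay between the other N1 libraries. The means were 14.1 ± 1.21 and 36.0 ± 1.53 (SD, n = 3 each), a ratio of 2.56, from 789 and 2471 fragments. With limma this was a log2 change of 1.30 (adjusted p = 0.000586, standard error 0.08), and it stayed between 1.24 and 1.46 over the 15 alternatives.

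The adaptor IRS1 (ENSSSCG00000025729, chromosome 15 from 128245846 to 128307321), the docking protein that links the receptor kinases to PI3-kinase, rose. It had an FPKM of 24.98, 26.05 and 31.8 in N1 replicates 4, 5 and 6, and of 34.7, 37.8 and 38.6 in N2. N1 replicate 6 was nearest to N2, and the groups did not overlap. The mean went from 27.6 ± 3.67 to 37.1 ± 2.07 (SD, n = 3 each), which limma gave as 0.42 on the log2 scale (adjusted p = 0.0142, standard error 0.10). This call was lost without N1 replicate 5 (adjusted p = 0.0527) and without N2 replicate 5 (adjusted p = 0.0550), and the range over the alternatives was 0.00178 to 0.0550.

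**Figure D2:**
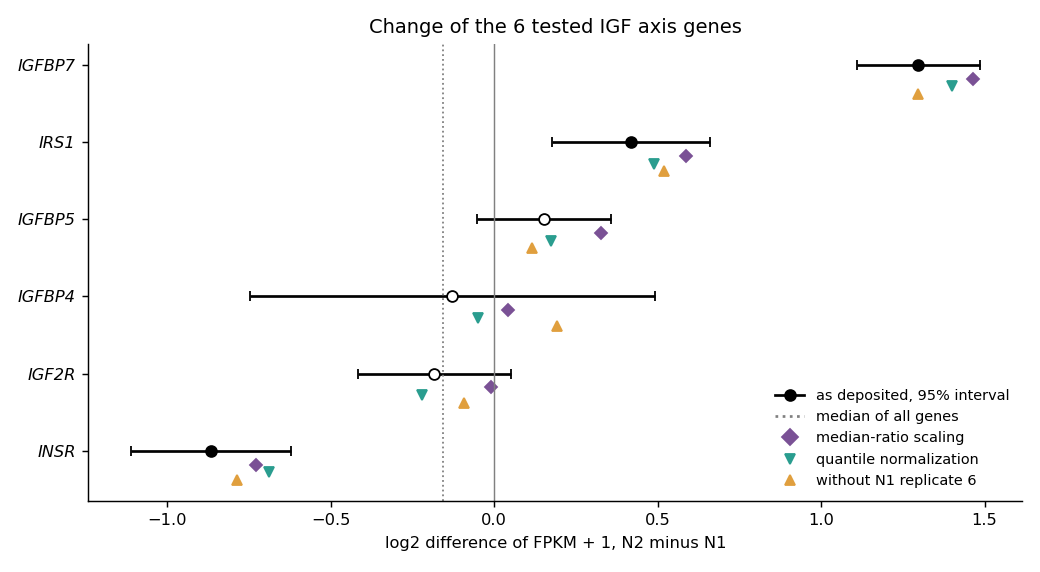
Log2 difference of FPKM + 1 between the groups (N2 minus N1, horizontal axis) for the 6 tested genes, with limma's 95% interval (circle filled where the adjusted p is under 0.05), and below it the value after median-ratio scaling, after quantile normalization and without N1 replicate 6. The intervals of IGFBP7 and IRS1 lie above 0 and that of INSR below 0, and the value of IGFBP4 changes side, from -0.13 to 0.04 with median-ratio scaling and to 0.19 without N1 replicate 6.

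The size of the changes was read against the whole table, since the median of all genes was itself below 0. Relative to that median the log2 changes were 1.45 for IGFBP7, 0.57 for IRS1, 0.31 for IGFBP5, 0.03 for IGFBP4, -0.03 for IGF2R and -0.71 for INSR. INSR and IRS1, receptor and adaptor of the same signal, thus lay on opposite sides of the median.

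FPKM is scaled to the counted length of a gene, so levels can also be ordered between genes. The counted lengths were 1793 bases for INSR and 3236 for IGF2R. Whether the rows cover the whole of their genes was not tested, and the order depends on it. In N1 the order by mean FPKM was IGFBP5, IGF2R, IGFBP4, IRS1, IGFBP7, INSR, IGF1 and IGF1R. IGFBP4 and IRS1 overlapped there, and the other neighbours did not. In N2 the order was IGFBP5, IGF2R, IRS1, IGFBP7, IGFBP4, INSR, IGF1 and IGF1R, and IRS1 and IGFBP7 were the overlapping neighbours. IGFBP7 moved from below IGFBP4 in N1 to above it in N2, since its highest N1 library had 15.3 against at least 20.2 for IGFBP4 and its lowest N2 library 34.6 against at most 26.5.

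Proportions within a library do not depend on how the libraries were scaled to each other, and they are given as a description with no test. IGFBP5 held most of the summed FPKM of IGFBP4, IGFBP5 and IGFBP7, with 93.3%, 92.2% and 88.1% in N1 replicates 4, 5 and 6 and 90.2%, 88.4% and 88.8% in N2. Its groups overlapped, whereas those of IGFBP7 did not. The share of IGFBP7 was 2.59%, 2.99% and 2.85% in N1 and 5.72%, 6.82% and 6.47% in N2, a mean difference of 3.53 percentage points. IGFBP4 held between 4.06% and 9.02% in N1 and between 4.04% and 4.80% in N2. For the receptors, the ratio of IGF2R to INSR was 21.0, 24.1 and 22.3 in N1 and 43.7, 42.3 and 40.7 in N2. IRS1 over INSR was 4.73, 5.20 and 5.07 in N1 and 13.1, 15.2 and 15.2 in N2. Both ratios were higher in all N2 libraries, and N1 replicate 6 lay between replicates 4 and 5 in each of them. INSR, which fell, is the denominator of both, so the ratios repeat its fall and are no further support for it.

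**Figure D3:**
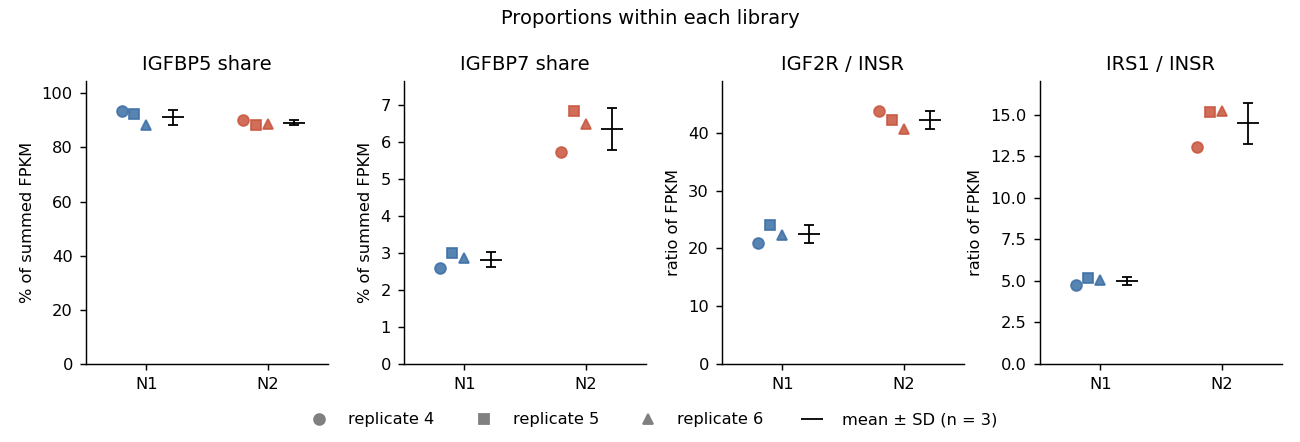
Proportions in each library (symbols by replicate number, mean ± SD beside them, n = 3 each): percent of the summed FPKM of IGFBP4, IGFBP5 and IGFBP7 held by IGFBP5 and by IGFBP7, and the FPKM ratios of IGF2R and IRS1 to INSR, all from 0. The IGFBP7 share is at most 2.99% in N1 and at least 5.72% in N2, and IRS1 over INSR at most 5.20 and at least 13.1.

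Genes were also ranked by how closely their profile followed that of a member, measured as the root mean square difference of log2(FPKM + 1), each gene centred on its own mean over the 6 libraries, among 5937 genes that had a symbol and averaged an FPKM of 5 or more. Nearest to IGFBP7 were EGLN3, a prolyl hydroxylase that acts on hypoxia-inducible factors, at 0.112, TSC22D4 at 0.113 and SH2B2, an adaptor of the insulin receptor, at 0.131. EGLN3 averaged 2.44 in N1 and 7.94 in N2, so it passed the minimum of 5 only through its level in N2. Its place is no support for a shared change. For INSR the nearest were LIN7C at 0.024, CPNE3 at 0.030 and SLC25A16 at 0.035. INSR itself averaged 4.04, under the minimum of 5 set for these genes. The pseudocount shrinks its change more than theirs, so the small distances depend in part on the scale. These distances rest on 6 libraries in 2 groups and are a description with no test.

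The rest of the pathway was described with a list of 93 genes in 7 roles, of which 74 had a row and 61 were tested. In this list 31 genes had a limma adjusted p under 0.05, 15 higher (1 of them, SOCS1, tested only through its level in N2) and 16 lower in N2. This is 50.8% of those tested, close to the 50.9% of all genes. The median log2 change of the list was 0.04, against -0.16 over all genes tested. With median-ratio scaling 24 were higher and 11 lower, and with quantile normalization 21 and 11, while over all genes the split went from 2322 higher and 4834 lower to 3367 and 3136 with median-ratio scaling. Calls were thus spread over both directions within the pathway.

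Of the 5 tested genes among the other ligands and binding proteins, 1 rose and 1 fell. Over all genes tested, 16.5% were called higher and 34.4% lower. The difference of any role from these shares was not tested. IGFBP6, a binding protein that prefers IGF2, had 6.71, 8.30 and 10.4 in N1 replicates 4, 5 and 6 and 3.81, 4.11 and 4.398 in N2, a log2 change of -0.88 (limma adjusted p = 0.00402). Its direction was opposite to that of IGFBP7. IGFALS, the subunit that completes the circulating IGF complex, rose by 0.44 from a low level (adjusted p = 0.0460), and the call was lost in 6 of its 14 alternatives, among them each of the fits without N1 replicate 4, N1 replicate 5 or any of the N2 libraries (adjusted p at most 0.134). IGFBP1 was listed at 0 in all libraries.

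Among the other adaptors 2 rose and 3 fell of the 9 tested, beside 16.5% higher and 34.4% lower over all genes tested. SH2B2, also called APS, which binds the activated insulin receptor, had 10.74, 11.08 and 10.97 in N1 and 27.1, 32.0 and 34.0 in N2. With 1.42 (limma adjusted p = 0.000586, standard error 0.09) it had the largest rise of the list on the log2(FPKM + 1) scale, while SOCS1, one of the inhibitors, had a higher ratio of means (3.90 against 2.84). PTPN11, the phosphatase SHP2 that relays signal toward RAS, had between 105.1 and 111.7 in N1 and between 60.3 and 65.7 in N2, a log2 change of -0.77 (adjusted p = 0.000692). GAB1, a docking protein for PTPN11 and PI3-kinase, fell by 0.62 on the log2 scale (adjusted p = 0.00155). IRS4 was listed at 0 in all libraries.

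In the PI3-kinase and AKT group 3 of the 7 tested genes fell and 0 rose under limma, where 34.4% of all genes tested were called lower and 16.5% higher. At an unadjusted p of 0.0396, 1 gene was higher (PIK3R3, log2 change 0.54, adjusted p = 0.0709, from 0.0336 to 0.188 over its alternatives). AKT2, the kinase of the AKT family best known for insulin-stimulated glucose uptake, had between 179.3 and 213.5 in N1 and between 206.95 and 214.9 in N2, with a log2 change of 0.07 (adjusted p = 0.515). The catalytic subunit PIK3CB fell by 0.73 (adjusted p = 0.0166), a call lost without N2 replicate 4 (0.0568) and without N2 replicate 5 (0.0596). PIK3C2A, a class II PI3-kinase, fell by 0.50 (adjusted p = 0.01003).

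The mTOR branch had 3 genes higher and 2 lower of 12 tested, against 16.5% and 34.4% of all genes tested. AKT1S1 (PRAS40), an inhibitor of mTOR complex 1 that AKT phosphorylates, had between 41.4 and 43.7 in N1 and between 60.5 and 79.9 in N2, a log2 change of 0.75 (limma adjusted p = 0.00273). MAPKAP1 (SIN1), a subunit of mTOR complex 2, rose by 0.48 (adjusted p = 0.00239). RHEB, the GTPase that activates mTOR complex 1, had between 77.5 and 92.7 in N1 and between 50.4 and 56.1 in N2, a log2 change of -0.63 (adjusted p = 0.00195). MTOR itself had 13.0, 13.1 and 13.9 in N1 and 13.8, 13.0 and 12.4 in N2, with overlapping groups and a 95% interval of the log2 change from -0.19 to 0.15.

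In the RAS and ERK branch 2 genes rose and 4 fell of 9 tested, where 16.5% of all genes tested rose and 34.4% fell. The kinase ARAF had 90.8, 89.2 and 76.6 in N1 and 165.3, 172.9 and 157.3 in N2, a log2 change of 0.94 (limma adjusted p = 0.00076). BRAF, a kinase of the same family, changed by -0.48 (adjusted p = 0.0202, up to 0.0684 over its alternatives). The kinase MAP2K2 (MEK2), which they phosphorylate, rose by 0.49 (adjusted p = 0.00536).

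Of the 10 tested inhibitors of the pathway 3 rose and 3 fell, against 16.5% and 34.4% of all genes tested. GRB10, an imprinted adaptor that binds INSR and IGF1R and restrains them, had 27.0, 26.5 and 25.8 in N1 and 55.1, 58.1 and 49.2 in N2. Its groups were far apart, at 1.005 on the log2 scale (limma adjusted p = 0.000692, standard error 0.08). SOCS1, which targets IRS proteins for degradation, had 0.640, 0.367 and 0.438 in N1 and 1.79, 1.98 and 1.87 in N2, from 20 and 95 fragments. Its mean was 0.482 in N1 and 1.88 in N2, so it passed the FPKM minimum only through the group where it was high, and its place among the 3 that rose is no support for a rise of the inhibitors. Its log2 change was 0.96 with the pseudocount of 1 and 1.98 with 0.01. PHLPP1, a phosphatase that removes an activating phosphate from AKT, had 59.1, 62.3 and 56.8 in N1 and 25.9, 27.2 and 28.5 in N2, at -1.10 on the log2 scale (limma adjusted p = 0.000586, standard error 0.07). This was the largest fall of the list on the log2(FPKM + 1) scale, while PIK3CB had a lower ratio of means (0.439 against 0.458).

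Among FOXO, GSK3 and glucose uptake genes 4 of 9 rose and 0 fell under limma (0 also at an unadjusted p under 0.05), where 16.5% of all genes tested were called higher and 34.4% lower. The difference from other genes was not tested. FOXO3, a transcription factor that AKT keeps out of the nucleus, had 27.2, 28.5 and 21.0 in N1 and 41.5, 49.4 and 49.8 in N2, a log2 change of 0.86 (adjusted p = 0.0028). FOXO1 rose by 0.41 (adjusted p = 0.00195), from values between 30.1 and 31.7 to values between 40.9 and 42.4. BAD, a cell death protein that AKT phosphorylates, rose by 0.47 (adjusted p = 0.00926). In contrast, GSK3B, the kinase that restrains glycogen synthesis, had overlapping groups and a 95% interval of its log2 change from -0.16 to 0.14.

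**Figure D4:**
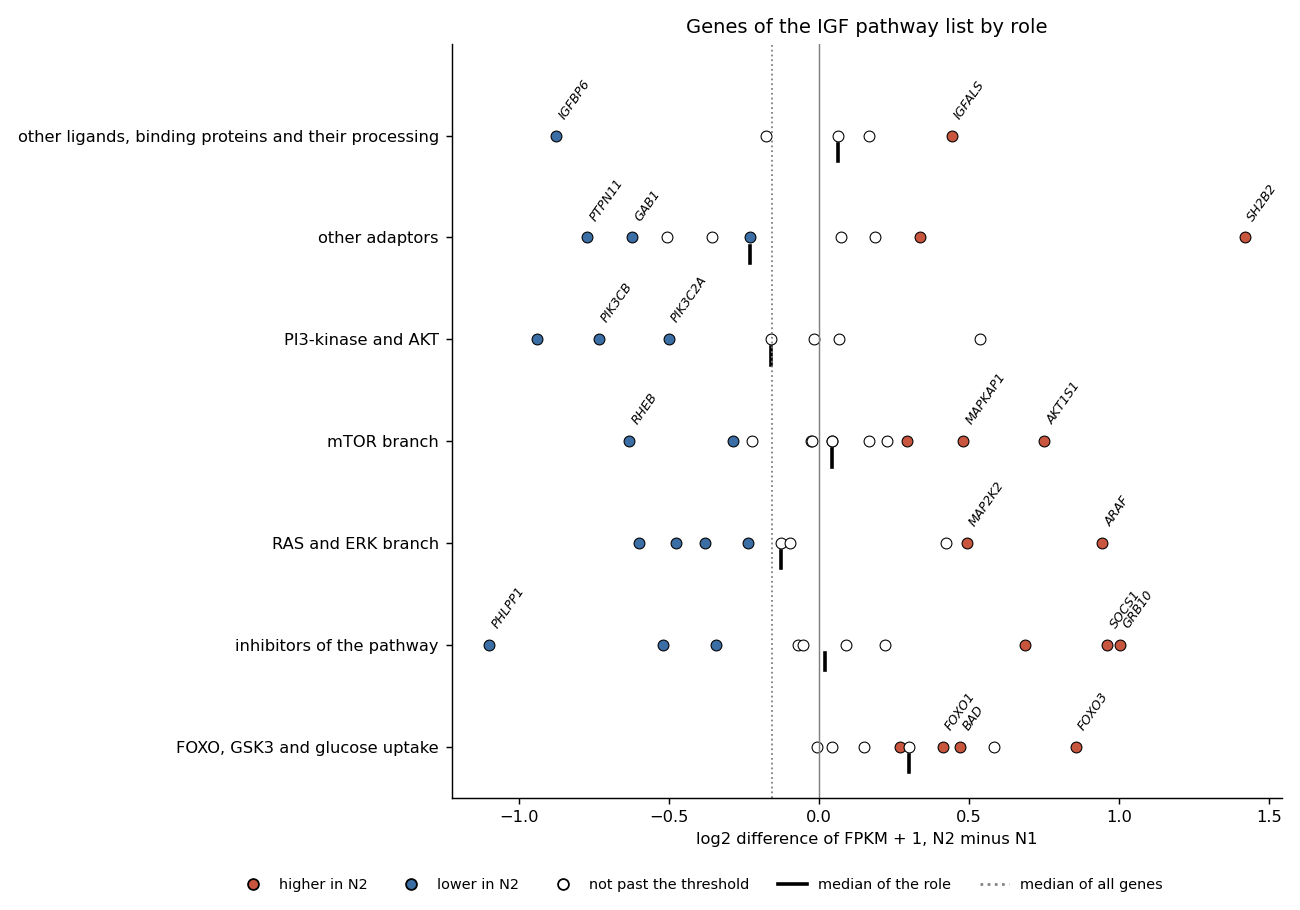
Log2 difference of FPKM + 1 (N2 minus N1, horizontal axis) of the 61 tested genes of the pathway list by role, coloured where limma's adjusted p is under 0.05, with the median of each role as a short bar and the median of all genes (-0.16) as a dotted line. Calls lie on both sides in 5 of the 7 roles, and SH2B2 at 1.42 and PHLPP1 at -1.10 are the extremes on this scale.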

How the data were processed

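Reads of Illumina paired-end libraries were aligned by the authors to Sscrofa11.1, and the deposited table gives FPKM for each gene in each library, with no pooled column. By the methods this was done with HISAT2, StringTie and HTSeq, whereas the submitters' processing notes name TopHat2, Cufflinks and HTSeq. Strandedness and the handling of shared reads are not given in the sources used here, so reads of overlapping genes cannot be told apart. Libraries with H19 siRNA were not analysed here, and 0 value columns were left unused.

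Genes were compared with limma 3.58.1 in R 4.3.3 (lmFit, eBayes with trend, two-sided) on log2(FPKM + 1), for genes whose FPKM averaged 1 or more. The study used a count test, which FPKM does not allow. Whole fragments were recovered from the steps of the deposited FPKM within each gene, for all 19543 genes above 0 in at least 3 libraries, and 99.1% of their lengths were within 0.05 of a whole number. A common factor in all libraries of a gene would give too few. The scripts were tested on simulated data. The genes named are the 8 with a row, up to 3 called pathway genes per role with the largest change (some are not reported here), and the 3 profiles nearest to the largest rise and fall. AKT2, MTOR, GSK3B, BRAF, PIK3R3, PAPPA, the genes listed at 0 and the genes under the minimum in the closing section were added after their values were seen. Members, lists and tests were chosen with earlier results of these data known. A ratio of IGF1R to INSR was planned, and the ratios of IGF2R and IRS1 to INSR were given in its place. Pathway genes without a paired symbol (19, among them IGF2, IRS2 and AKT1) were not analysed here. RefSeq (Sscrofa11.1) gave the coordinates. No sequences are shown.

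Repeated fits changed the pseudocount (0.1 or 0.01), the filter (none, or an average FPKM of 5), the scaling (quantile or median-ratio), the trend in eBayes, or the block (replicate number), omitted 1 library at a time, required an absolute log2 change of 1, or ran limma voom with the recovered fragments.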

Additional observations from a re-analysis of the deposited data

How the results depend on the processing

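With an added minimum of 1 for the absolute log2 change, 1 of the 3 called IGF axis genes was left (IGFBP7). So were 3 of the 31 called pathway genes and 1176 of the 7156 called genes in the whole table. By its construction this rule drops small changes, and on log2(FPKM + 1) it also drops larger changes of genes with low FPKM. INSR, with a ratio of means of 0.465, was dropped at -0.87, while limma voom gave it a log2 change of -1.10. In the other alternatives the counts ranged from 2 to 4 IGF axis genes, from 23 to 36 pathway genes and from 4889 to 7336 genes when 1 library was left out, with the lowest number without N2 replicate 5. The change of IGFBP4 (-0.13) turned to 0.041 with median-ratio scaling and to 0.193 without N1 replicate 6, and it ranged from -0.36 to 0.19 over the fits without 1 library. IGFBP5 passed the threshold with median-ratio scaling alone (0.33). IRS1 lost its call without N1 replicate 5 and without N2 replicate 5, with changes from 0.35 to 0.52 over the fits without 1 library. INSR and IGFBP7 kept direction and call in all their alternatives (14 and 15), and IGF2R kept its negative sign and was not called in 15. The cause of these differences was not tested. Of 267 values of the 18 named pathway genes under the alternatives, 259 kept direction and side of the threshold and 8 lost the call (6 for IGFALS, 2 for PIK3CB). Scaling moved the median of all genes from -0.16 to -0.006. The mean difference of the IGFBP4 share was -1.44 percentage points and 0.085 without N1 replicate 6.

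The numbers 4, 5 and 6 are shared by the groups, and the correlations of deviations from the group means were 0.15, -0.02 and 0.18. Such values cannot settle whether libraries of the same number share an animal or a batch, which was not tested. With the replicate block 7034 genes, 36 pathway genes and 3 IGF axis genes were called. IGF1 and IGF1R stood on 26 and 5 fragments, which sets what could be seen of them, and counting intervals cover counting error only.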

Other observations

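Of the pathway list, 13 genes averaged an FPKM below 1 and were not tested. Those given here were picked after their values were seen and do not stand for the others. In each of them the groups did not overlap, whereas those of PAPPA2, STC1 and GRB14, for example, did. The share without overlap was 63.6% over all genes tested, which are genes at or above the minimum, so it is no measure for these low rows. SLC2A4 (GLUT4), the glucose transporter that insulin brings to the surface of muscle cells, had 0 fragments in the 3 N1 libraries and 7 in the 3 N2 libraries. INPP5D, a lipid phosphatase best known from blood cells, had 12 and 49 fragments, with 0.113, 0.0779 and 0.0388 FPKM in N1 and 0.245, 0.277 and 0.248 in N2. PIK3CD, a catalytic PI3-kinase subunit also known from blood cells, had 52 and 17 fragments, from 0.258 to 0.535 FPKM in N1 and from 0.0783 to 0.136 in N2. PIK3R1, a regulatory PI3-kinase subunit, had a row with 3 and 13 fragments. Whether these low rows cover the whole of their genes was not tested.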
